A study of Homo sapiens with 8 samples.

Results

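The 8 genes described here encode S100 proteins: S100A4, S100A6, S100A8, S100A9, S100A10, S100A11, S100A12 and S100A13. They were taken by symbol from the 78932 genes of the deposited count table, and all 8 were found there. S100A8 was already known, from these same libraries, as a large fall under the OE label, so every OE against control value of these genes is a description without a test. S100 proteins are small EF-hand proteins that usually work as dimers; on binding calcium most of them open a surface that grips a partner such as an annexin, a myosin or a receptor. S100A8 and S100A9 pair as calprotectin, which neutrophils and monocytes hold in quantity and release as an alarm signal read by TLR4. S100A12 is a related granulocyte protein that binds the receptor AGER. S100A4, S100A6, S100A10 and S100A11 act mostly inside the cell on the cytoskeleton and membranes, and S100A13 takes part in the export of proteins that lack a signal peptide.

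The study profiled polysomes of human acute myeloid leukaemia cells labelled Molm13 (KMT2A-rearranged and FLT3-ITD positive) or U937 (a line of monocytic character). Cells carried a lentiviral OGFOD1 overexpression vector (label OE) or were labelled control; OGFOD1 is a prolyl hydroxylase of the ribosomal protein RPS23. All cells received cycloheximide, at 100 µg/ml before and during lysis, which freezes ribosomes on the RNA. Each sucrose gradient gave a heavy pool (fractions with at least 3 ribosomes) and a light pool (free ribonucleoproteins, monosomes and disomes), so the 4 groups OE heavy, control heavy, OE light and control light held 2 libraries each, 1 per line label. The control libraries carry the tag Scr in their names, but the labels do not spell out what the control cells carried. They also do not say whether the vector was checked by protein, or whether any line is a clone.

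Total counts ran from 25741930 to 89373133 reads per library. OGFOD1 itself was lower under the OE label, with 25.3 and 12.4 CPM (reads of a gene per 1000000 of the library, TMM-scaled) in the OE heavy pools labelled Molm13 and U937 against 44.4 and 60.2 CPM in the control heavy pools, so OE below names a label and not a measured rise. Its fitted log2 fold change over both pools was -1.60 (SE 0.30, adjusted p = 0.018, edgeR). The Molm13 control light library stood apart: mitochondrial genes made up 2.49% of its counts, against 19.8% to 23.3% in the other light pools and 0.360% to 0.941% in the heavy pools. Its counts over genes, mitochondrial ones included, were also nearer those of the heavy libraries than those of the other light libraries. Chi-square per degree of freedom was 204 to 397 against the former and 1085 to 1383 against the latter. The reason was not tested. Values without this library are given beside many of the results it moves. All 9 myeloid markers averaged at least 1 CPM, and erythroid, epithelial and fibroblast markers each summed to less than 1 CPM in every library. The 4 markers chosen for Molm13 (FLT3, MEIS1, HOXA9 and PBX3) summed to 256 to 458 CPM under the Molm13 label and 325 to 453 CPM under the U937 label, so they did not set the line labels apart. Such levels do not show the KMT2A rearrangement or the FLT3-ITD, so they cannot say whether the line labels are right. Of the T cell markers, CD3D alone was above 1 CPM on average; CD3E, CD3G and CD2 stayed at or below 0.338 CPM.

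The family spanned a wide range of abundance. The 8 genes lie on chromosome 1 (GRCh38), between 151982915 and 153631360, and together took 0.0302% to 0.421% of a library's counts. To compare genes, CPM was divided by the length of each gene's exons. By the median over the 8 libraries S100A4, known for binding non-muscle myosin, ranked first with 997 CPM per kb, with a range of 56.8 to 2531 CPM per kb. S100A11, an annexin A1 partner, followed at 654 CPM per kb. S100A6, also called calcyclin, stood at 285 CPM per kb, and S100A10, the calcium-independent partner of annexin A2, at 204 CPM per kb. The calprotectin genes were far lower, at 13.9 CPM per kb for S100A8 and 12.1 CPM per kb for S100A9, and S100A13 had 3.40 CPM per kb. Neighbours in this order overlapped in their ranges over libraries, apart from the gap between S100A10 (lowest 65.7 CPM per kb) and S100A8 (highest 33.5 CPM per kb), and S100A12 below all. Within the light pools the order of the leading 3 changed, and S100A6 came first with a median of 186 CPM per kb, ahead of S100A4 with 170 CPM per kb and S100A11 with 168 CPM per kb.

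S100A12, the third calgranulin, was close to undetected. It had 8 reads, all in the Molm13 control heavy library, or 0.124 CPM of all counts (exact 95% interval 0.0536 to 0.245). The other libraries had 0 reads, and by the limit of 3 reads a count of 0 allowed up to 0.0336 to 0.117 CPM depending on their depth (exact 95% upper limits 0.0413 to 0.143 CPM); intervals and limits cover counting error only. It did not pass the filter on low counts, so 7 of the 8 genes were tested.

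**Figure D1:**
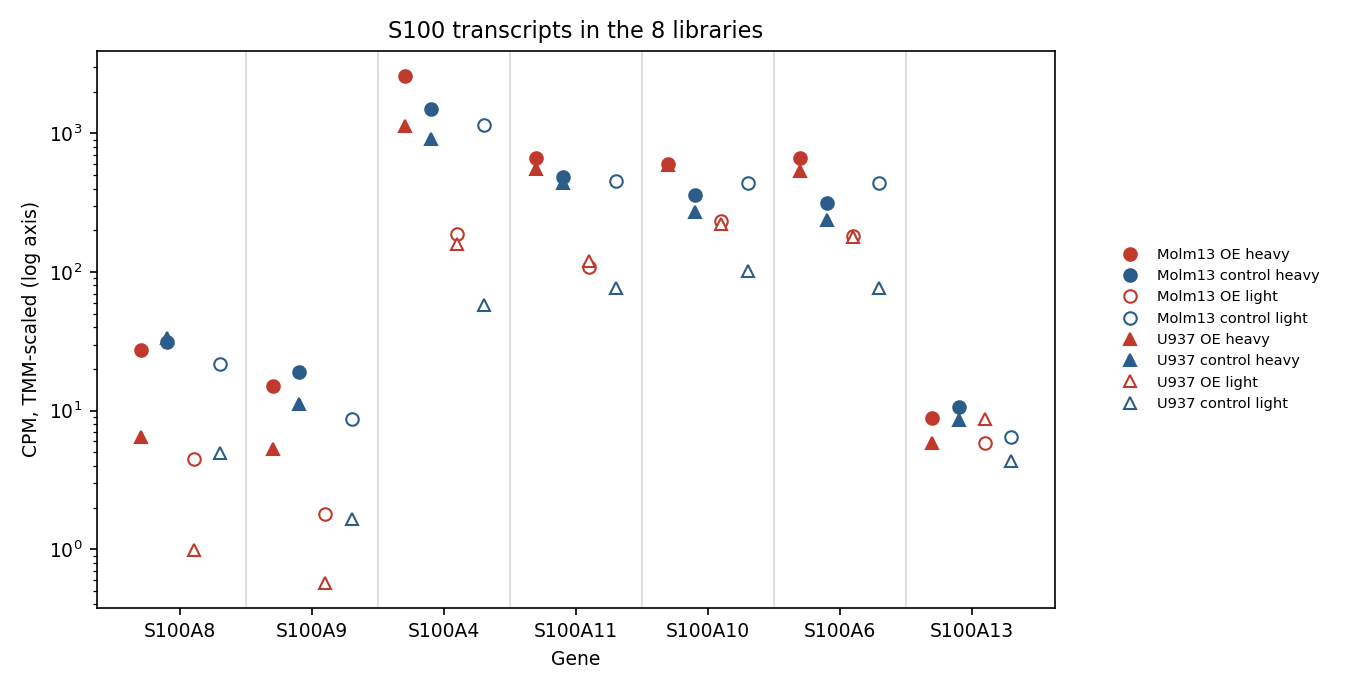
CPM (TMM-scaled, log axis) of 7 S100 genes in each of the 8 libraries; filled symbols are heavy pools, open symbols light pools, red OE and blue control, circles Molm13 and triangles U937. S100A8 lies between 0.992 and 33.7 CPM, while S100A4 reaches 2595 CPM in the Molm13 OE heavy library; S100A12 is not drawn.

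Across the 8 libraries the genes fell into recognisable profiles. Likeness was measured as the root mean square difference of log2 CPM (prior count 2) after centring each gene on its own mean over the 8 libraries. S100A6 and S100A10 were the closest pair, at 0.17. S100A8 and S100A9 differed by 0.43, and each of them was at least 0.86 from every other member. S100A13 was at least 0.72 from every other member and varied least, between 4.35 and 10.7 CPM. The ratio of S100A8 to S100A9 reads was 1.81 and 1.23 in the OE heavy pools labelled Molm13 and U937, against 1.65 and 3.00 in the control heavy pools. In the light pools it was 2.48 and 1.72 under OE, against 2.47 and 3.02 in controls. The ratio was thus lower with OE under the U937 label in both pools, and differed little under the Molm13 label.

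**Figure D2:**
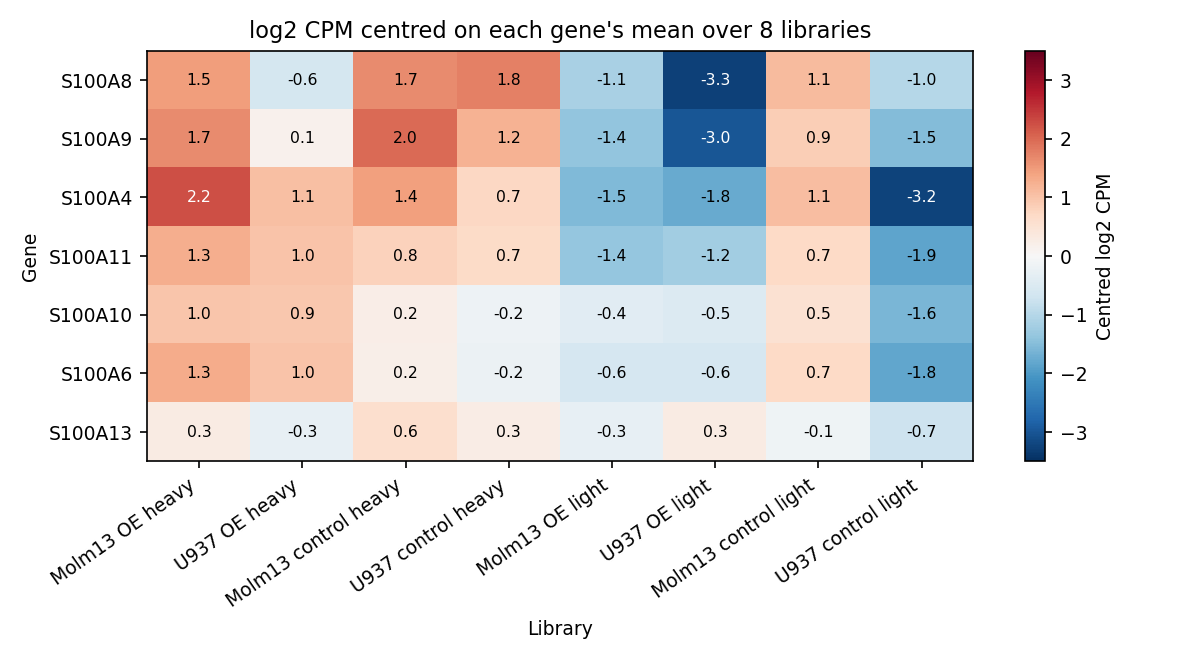
log2 CPM of 7 S100 genes (rows) in the 8 libraries (columns), each gene centred on its mean; red is above and blue below that mean. S100A8 and S100A9 share their lowest value in the U937 OE light library, while S100A4, S100A11, S100A10 and S100A6 are lowest in the U937 control light library.

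The 2 pairs of genes that moved together are shown with the promoters that RefSeq gives them (300 bases, 250 before to 50 after the start site, GRCh38.p14), since genes of a pair can be compared there base by base. Capitals mark matches to a TATA box (TATAAA, given strand) and to the core of the myeloid factor PU.1 (GAGGAA, either strand, so TTCCTC where it lies on the reverse strand); the C/EBP form TTGCNNAA was searched on both strands and has no match in these 4 windows. Of the 3 windows listed for S100A8, the one with a TATA box at the usual distance is shown. The windows are chr1:153391024-153391323 (minus strand) for S100A8, chr1:153357604-153357903 (plus) for S100A9, chr1:153535942-153536241 (minus) for S100A6 and chr1:151993810-151994109 (minus) for S100A10.
S100A8: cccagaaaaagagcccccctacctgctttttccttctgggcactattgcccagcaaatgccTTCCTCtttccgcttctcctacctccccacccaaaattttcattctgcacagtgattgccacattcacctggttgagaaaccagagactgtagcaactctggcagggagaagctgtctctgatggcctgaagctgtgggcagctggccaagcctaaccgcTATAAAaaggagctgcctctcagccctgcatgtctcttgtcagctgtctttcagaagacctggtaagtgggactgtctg
S100A9: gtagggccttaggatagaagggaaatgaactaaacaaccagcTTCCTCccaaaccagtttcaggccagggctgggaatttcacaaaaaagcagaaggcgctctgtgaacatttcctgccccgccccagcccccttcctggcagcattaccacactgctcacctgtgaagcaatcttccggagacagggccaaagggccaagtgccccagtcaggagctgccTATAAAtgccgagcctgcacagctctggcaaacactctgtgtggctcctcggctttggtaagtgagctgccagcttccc
S100A6: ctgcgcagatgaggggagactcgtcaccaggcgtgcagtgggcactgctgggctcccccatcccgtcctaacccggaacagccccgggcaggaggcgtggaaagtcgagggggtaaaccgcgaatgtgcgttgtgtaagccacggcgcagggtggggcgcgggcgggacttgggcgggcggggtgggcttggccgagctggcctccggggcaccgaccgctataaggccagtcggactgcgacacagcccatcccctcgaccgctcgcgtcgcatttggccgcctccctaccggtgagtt
S100A10: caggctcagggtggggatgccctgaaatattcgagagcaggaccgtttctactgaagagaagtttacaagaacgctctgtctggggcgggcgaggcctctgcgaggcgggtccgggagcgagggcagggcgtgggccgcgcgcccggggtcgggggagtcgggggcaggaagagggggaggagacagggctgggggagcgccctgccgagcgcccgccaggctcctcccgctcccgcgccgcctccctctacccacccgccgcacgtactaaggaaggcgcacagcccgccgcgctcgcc
TATAAA begins 29 bases before the start site in the window of S100A9 and in the chosen 1 of the 3 windows of S100A8. Of 34796 RefSeq windows, 2.31% have it 40 to 20 bases before the start. A window of S100A4 (31 bases before the start) and 1 of the 3 windows of S100A13 (29 bases) have it too, so 4 of the 8 genes do; in S100A12 TATAAA begins 8 bases before the start. GAGGAA on the reverse strand occurs in S100A8 (189 bases before the start) and S100A9 (208 bases), and 27.9% of all windows hold it on either strand. TTGCNNAA occurs in S100A11 and S100A12 and in 10.5% of all windows. The windows of S100A6 and S100A10 hold no exact match to the 3 motifs, though that of S100A6 has tataag before its start, 1 base off the TATA form searched. Both windows are rich in CG pairs, with 31 and 32, against 2 in the S100A8 window, 5 in the S100A9 window and a median of 14 over all windows. These are matches of letters and say nothing of whether a factor binds.

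Under the OE label the calprotectin genes were lower in all 4 matched pairs, which is the pattern for which S100A8 was chosen. S100A8 had 27.3 and 6.47 CPM in the OE heavy pools labelled Molm13 and U937, against 31.4 and 33.7 CPM in the control heavy pools. In the light pools it had 4.49 and 0.992 CPM under OE, against 21.6 and 4.96 CPM in controls. The labels did not overlap in either pool, though Molm13 OE lay just under the lower control in both. The log2 difference of OE minus control was -2.37 in U937 heavy, -2.29 in U937 light and -2.25 in Molm13 light, but -0.20 in Molm13 heavy. The Molm13 light pair contains the Molm13 control light library. All other tested members were lower in that pair too, from -0.15 for S100A13 to -2.61 for S100A4. For S100A8 the fitted log2 fold change over both pools was -1.89 (SE 0.36). It lay between -2.35 and -1.26 when each library was left out in turn. Over all 24289 tested genes, 4.37% passed the threshold for OE against control (2.01% higher and 2.36% lower), and nothing is read from that share for genes chosen with this contrast. The lowest S100A8 value rested on 50 reads in the U937 OE light library (exact 95% interval 0.712 to 1.27 CPM of all counts), and the U937 control light value on 266 reads (4.08 to 5.21 CPM); these intervals cover counting error only, not the spread between cultures, and reads are not independent molecules. In bulk libraries, fewer cells of a type and less RNA per cell cannot be told apart.

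S100A9 followed its partner, with smaller differences under the U937 label. It had 15.1 and 5.28 CPM in the OE heavy pools labelled Molm13 and U937, against 19.0 and 11.2 CPM in the control heavy pools. The OE light pools had 1.81 and 0.575 CPM, against 8.73 and 1.64 CPM in the control light pools. The labels overlapped in both pools, as the Molm13 OE libraries were above the U937 control ones. Within pairs the log2 difference was -0.33 in Molm13 heavy, -1.09 in U937 heavy, -2.25 in Molm13 light and -1.46 in U937 light, and the fitted value was -1.36 (SE 0.29). Some markers of cell type also differed with the label. The T cell list summed to 15.6 to 120 CPM in OE libraries and 1.40 to 32.1 CPM in controls, nearly all of it CD3D. CD3D was higher under OE in 3 of 4 pairs and lower in Molm13 light (15.5 CPM in OE, 32.0 CPM in control). It did not pass over both pools (2.05, SE 0.66, adjusted p = 0.091, edgeR), and stood at 3.52 without the Molm13 control light library. The 9 myeloid markers summed to 541 to 1272 CPM in OE libraries and 558 to 913 CPM in controls. Of these, ITGAM, an integrin of mature myeloid cells, passed as higher (1.79, SE 0.26, adjusted p = 0.012, edgeR), and MPO, the granule myeloperoxidase, as lower (-1.01, SE 0.24, adjusted p = 0.036). Fitted values were positive for 5 of the 9 and negative for 4. CD68 (1.58, SE 0.42), CSF1R (1.06, SE 0.33) and PTPRC (0.85, SE 0.28) were higher without passing. Without the Molm13 control light library they stood at 2.45, 1.41 and 1.09, with ITGAM at 1.86 and MPO at -0.97. With the pools of each gradient summed, no gene passed for OE against control. The part of these markers in the calprotectin result was not tested.

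The remaining members did not share the calprotectin pattern. S100A6 had 666 and 538 CPM in the OE heavy pools labelled Molm13 and U937, against 315 and 238 CPM in the control heavy pools, with no overlap. Its light pools had 182 and 180 CPM under OE, against 442 and 76.8 CPM in controls, and the controls lay on either side of OE. S100A10 behaved alike, with 601 and 594 CPM in the OE heavy pools against 358 and 271 CPM in the control heavy pools, again with no overlap. Its light pools had 234 and 221 CPM under OE against 441 and 101 CPM in controls. In 3 of 4 pairs both genes were higher under OE, by 0.75 to 1.23 on the log2 scale, and in Molm13 light they were lower, at -1.28 for S100A6 and -0.91 for S100A10. That pair contains the Molm13 control light library.

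S100A4 and S100A11 showed the same split between pairs. S100A4 had 2595 and 1136 CPM in the OE heavy pools labelled Molm13 and U937, against 1494 and 908 CPM in the control heavy pools, groups that overlap. In the light pools it had 189 and 160 CPM under OE, against 1151 and 58.2 CPM in controls. S100A11 had 669 and 557 CPM in the OE heavy pools against 484 and 439 CPM in the control heavy pools, without overlap, and 109 and 120 CPM in the OE light pools against 451 and 76.7 CPM in the control light pools. Fitted over both pools, S100A4 stood at -0.27 (SE 0.54), S100A11 at -0.27 (SE 0.41), S100A6 at 0.45 (SE 0.39), S100A10 at 0.46 (SE 0.37) and S100A13 at 0.03 (SE 0.27). Without the Molm13 control light library these values were 0.91 for S100A4, 0.47 for S100A11, 1.12 for S100A6 and 1.01 for S100A10, while S100A8 was at -1.63 and S100A9 at -1.01. S100A13 had 8.79 and 5.87 CPM in the OE heavy pools against 10.7 and 8.59 CPM in the control heavy pools, and 5.85 and 8.75 CPM in the OE light pools against 6.50 and 4.35 CPM in the control light pools, overlapping in both.

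**Figure D3:**
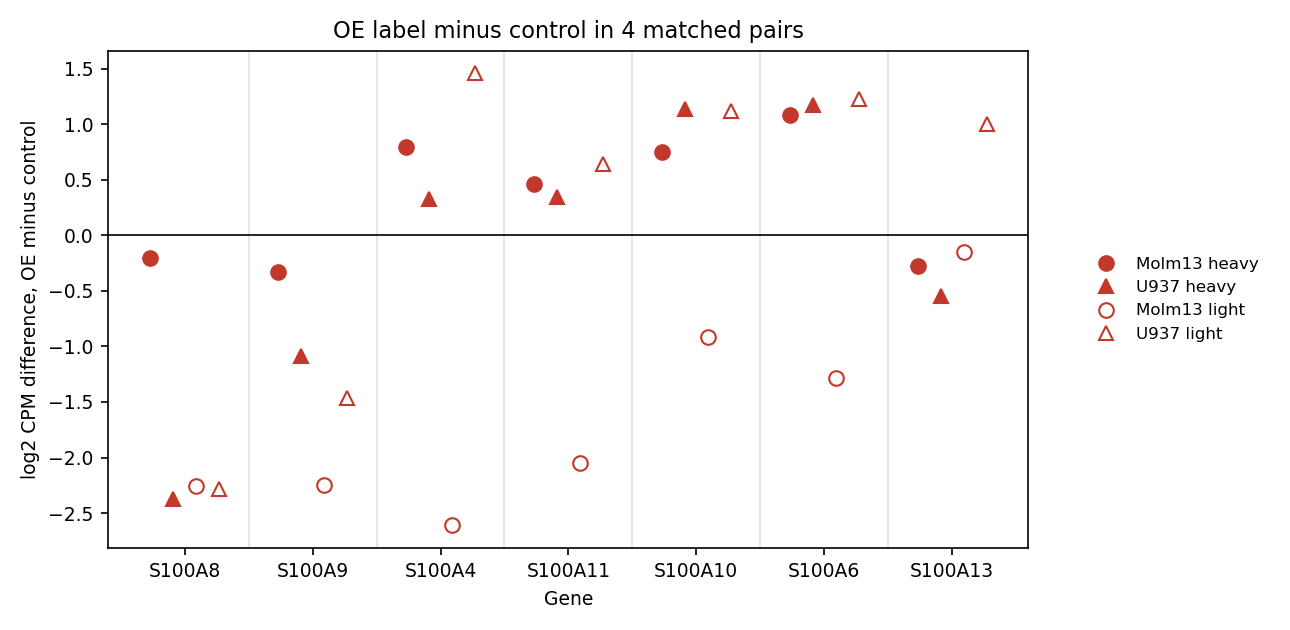
log2 CPM difference of OE minus control for 7 S100 genes in 4 matched pairs; filled symbols are heavy pools, open symbols light pools, circles Molm13 and triangles U937. S100A8 and S100A9 are below 0 in all 4 pairs, whereas S100A4, S100A11, S100A10 and S100A6 are below 0 only in the Molm13 light pair.

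Where S100 transcripts sit on the gradient was tested by comparing heavy with light pools over both genotypes, a contrast not used to choose the genes. All values are relative to the other RNA of the same pool and do not give the share of a transcript's molecules that is on polysomes. In total 4 of the 7 tested members passed the threshold, all of them higher in the heavy pools, while 15.8% of all tested genes passed as higher and 12.8% as lower. Among the 13575 tested protein-coding genes 21.8% passed as higher and 10.6% as lower. The calprotectin genes and the more abundant S100A4 and S100A11 made up the 4. The median log2 fold change of the 7 members was 1.71, against -0.04 over all tested genes and 0.15 over the protein-coding ones.

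S100A9 stood at 2.52 on the log2 scale (SE 0.30, adjusted p = 0.00057, edgeR), and was higher in the heavy pool of 4 of 4 gradients. S100A4 stood at 2.40 (SE 0.55, adjusted p = 0.0068), S100A8 with 2.24 (SE 0.36, adjusted p = 0.0013) and S100A11 with 1.71 (SE 0.41, adjusted p = 0.0091), each higher in 4 of 4 gradients. S100A6 (1.02, SE 0.39, adjusted p = 0.068), S100A10 (0.89, SE 0.37, adjusted p = 0.086) and S100A13 (0.40, SE 0.27, adjusted p = 0.29) did not pass, each with 3 of 4 gradients positive. The Molm13 control gradient was the low end for 6 of these genes: its heavy minus light difference was 0.54 for S100A8, 1.12 for S100A9, 0.38 for S100A4, 0.10 for S100A11, -0.30 for S100A10 and -0.49 for S100A6. The other 3 gradients gave 2.60 to 2.75 for S100A8, 2.75 to 3.13 for S100A9, 2.83 to 3.96 for S100A4 and 2.22 to 2.62 for S100A11. They gave 1.36 to 1.43 for S100A10 and 1.58 to 1.87 for S100A6. Without the Molm13 control light library S100A6 was at 1.74 and S100A10 at 1.49. That fit leaves a single control light library, so its p-values are not given. In that fit S100A4 was at 3.66, S100A9 at 2.84, S100A11 at 2.50, S100A8 at 2.43 and S100A13 at 0.56, so the order of the leading genes depended on that library.

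S100 coding sequences are short, and a short coding sequence has room for few ribosomes, so the members were also set beside genes of like length. Their coding sequences run from 270 bases (S100A6) to 342 bases (S100A9). The 258 tested protein-coding genes within that range had a median log2 fold change of 0.35, and 26.0% of them passed as higher in the heavy pools. Over all 13575 tested protein-coding genes the median was 0.15 and 21.8% passed as higher. The upper quartile of the length class was 0.92; S100A6 (1.02) and the 4 called members had larger values, and S100A10 (0.89) and S100A13 (0.40) smaller ones. This places the 7 values among genes of like length and tests nothing.

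**Figure D4:**
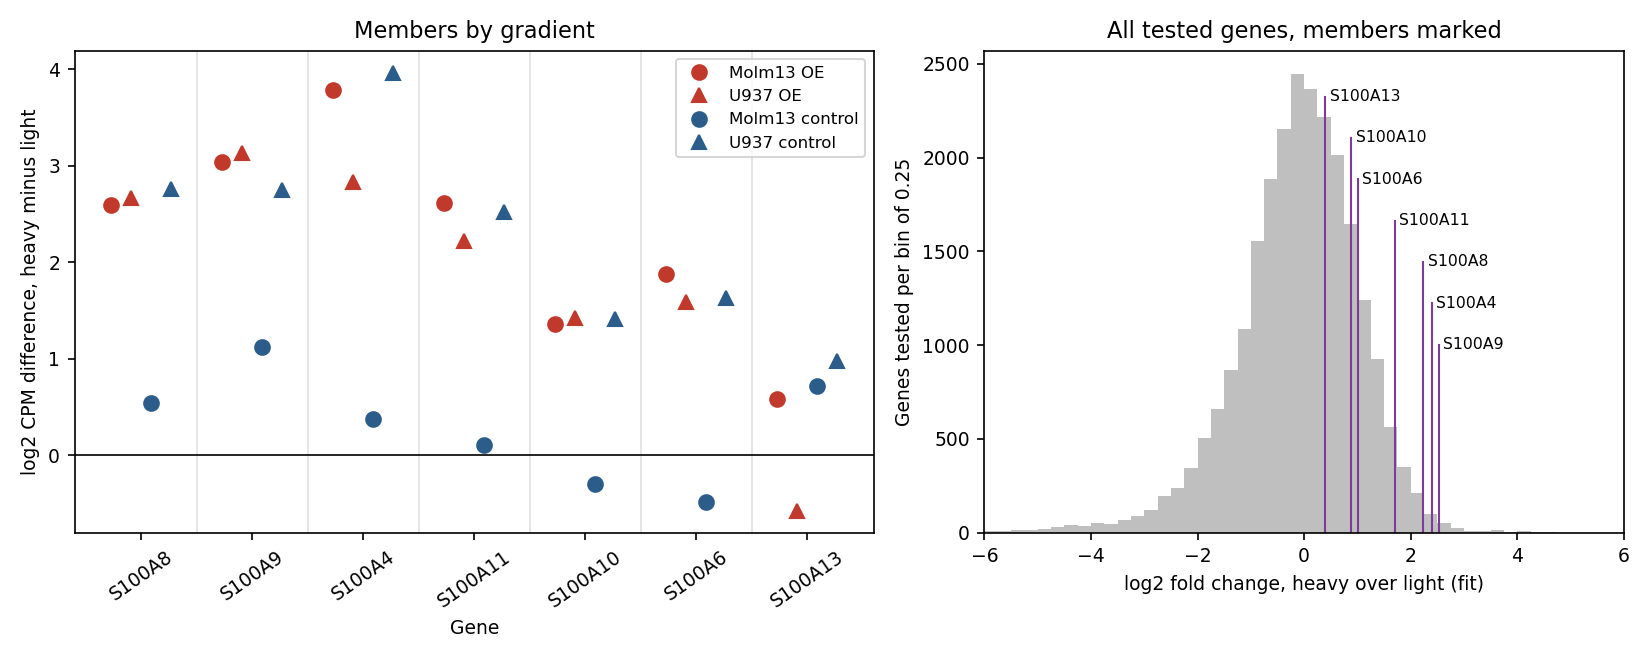
Left, log2 CPM difference of heavy minus light for 7 S100 genes in each of the 4 gradients (red OE, blue control, circles Molm13, triangles U937). Right, histogram of fitted log2 fold changes of heavy over light for all 24289 tested genes, with the members marked, from 0.40 for S100A13 to 2.52 for S100A9.

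Whether the heavy to light difference itself depended on the OE label was tested as an interaction. No gene of 24289 passed in edgeR (0% called), with 1431 at an unadjusted p under 0.05; DESeq2 called 6 genes and limma voom 0, and no member passed with any of these tools. Among the members the interaction was positive for 6 of 7 and ran from 0.77 (SE 0.70) for S100A8 to 1.57 (SE 1.10) for S100A4, with S100A13 at -0.88 (SE 0.54), and adjusted p values from 0.79 to 0.85. Without the U937 control light library S100A4 was at 2.95, S100A11 at 2.35, S100A6 at 2.31 and S100A10 at 1.83. Without the Molm13 control light library S100A4, S100A10 and S100A11 took the opposite sign (-0.66, -0.15 and -0.13). The interaction of these genes therefore turned on which control light library was kept.

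The line labels were compared in the same fit, 4 libraries each. No gene passed in edgeR (0% called; 2862 genes had a raw p under 0.05, and the lowest adjusted p was 0.084), limma voom called 1 and DESeq2 called 303. All 7 members had a positive Molm13 minus U937 value. S100A9 stood at 1.57 (SE 0.30, adjusted p = 0.12) and was higher under Molm13 in 4 of 4 pairs. S100A8 stood at 1.58 (SE 0.37, adjusted p = 0.22) and was higher in 3 of 4 pairs, by 2.07 to 2.14, with -0.10 in the control heavy pair. By level, S100A8 had a median of 24.4 CPM (4.49 to 31.4) under the Molm13 label and 5.72 CPM (0.992 to 33.7) under the U937 label, and the ranges overlap. DESeq2 called both genes (adjusted p = 0.0045 for S100A8 and 0.00056 for S100A9). In edgeR without either control light library S100A8 was at 1.35 and S100A9 at 1.27. S100A4 was at 1.47 (SE 0.57, adjusted p = 0.36), and the other 4 members at 0.23 to 0.77.

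Known partners of these proteins were followed as a list of annexins and other binding proteins, of which 12 of 14 were tested. For heavy against light pools 15.8% of all tested genes passed as higher and 12.8% as lower, and 21.8% and 10.6% of the protein-coding ones. The median log2 fold change over the 12 was 0.95, against -0.04 over all tested genes and 0.15 over the protein-coding ones. Of the 12, 7 were higher in the heavy pools and 0 lower. They included annexin A2 (ANXA2, 1.37, SE 0.24, adjusted p = 0.0021), the membrane-binding protein that S100A10 joins in a complex, annexin A5 (ANXA5, 1.29, adjusted p = 0.0029), annexin A4 (ANXA4, 1.12, adjusted p = 0.0044) and CACYBP, the calcyclin-binding protein of S100A6 (1.48, adjusted p = 0.0030). The count ran from 4 to 9 higher when single libraries were left out, and these 4 genes passed in each of 17 alternative fits. Without the Molm13 control light library the list median was 1.27. For OE against control 1 partner passed, ANXA2, which was lower; the list median was -0.20, against -0.05 over all tested genes, of which 4.37% passed. ANXA1 stood at 0.69 with all libraries and at 1.18 without the Molm13 control light library. ANXA2 had 107 and 62.4 CPM in the OE heavy pools labelled Molm13 and U937, against 183 and 149 CPM in the control heavy pools, and 33.3 and 27.3 CPM in the OE light pools against 77.2 and 59.2 CPM in the control light pools. Neither pool overlapped, and the fitted log2 fold change was -1.09 (SE 0.24, adjusted p = 0.031); it kept its sign but missed the threshold in 8 of 16 alternatives, with adjusted p from 0.00055 to 0.26. S100A10, its partner, was higher under OE in 3 of these same 4 pairs.

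Among 24 other EF-hand calcium sensors 23 were tested, and heavy pools held 12 of them at higher and 1 at lower levels. The shares were 15.8% and 12.8% over all genes, and 21.8% and 10.6% over protein-coding genes. The list median was 0.83. LETM1, a mitochondrial inner membrane protein, was at 1.29 (adjusted p = 0.0019), calmodulin 2 (CALM2) at 1.91 (adjusted p = 0.0024) and the Golgi protein SDF4 at 1.86 (adjusted p = 0.0032), while CHP1, a partner of sodium-proton exchangers, was the lower one at -1.41 (adjusted p = 0.0035). Counts of higher genes ran from 8 to 17 with single libraries left out, the 17 without Molm13 control light, where the median was 1.01. Under OE, 1 of the 23 sensors passed, a share like the 4.37% of all genes. It was LETM1, at -0.99 (adjusted p = 0.032), and it missed the threshold in 7 of 16 alternatives (adjusted p from 0.0026 to 0.17), with a list median of -0.26.

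Of the 8 receptors and surface partners of extracellular S100 proteins, 2 were higher in the heavy pools, against 15.8% of all genes and 21.8% of protein-coding genes. They were basigin (BSG, 1.83, adjusted p = 0.0039), which binds S100A9, and LY96, the TLR4 co-receptor (2.24, adjusted p = 0.010). LY96 was at 2.59 CPM or less in every library. TLR4 itself averaged 3.81 CPM and did not pass, and the receptor list had a median of 0.19. Of 10 transcription factors of the myeloid lineage, 3 were higher in the heavy pools, IRF8 (1.10, adjusted p = 0.0077), PU.1 itself (SPI1, 1.32, adjusted p = 0.012) and CEBPD (1.01, adjusted p = 0.026). With single libraries left out that count ran from 0 to 5 (5 without Molm13 control light), and the median was 0.55. For OE against control no receptor and no factor of these lists passed with all 8 libraries in edgeR; the smallest p belonged to the scavenger receptor CD36 (-1.14, adjusted p = 0.11) and to CEBPE, a granulocyte factor (1.13, adjusted p = 0.12). Without the Molm13 control light library CD36 was at -1.54, CEBPE at 1.45 and CEBPB at 0.83. With all libraries kept, 1 receptor passed with DESeq2 and with no filter. Of the other 13 genes on the S100 list 7 were tested, with a median of -0.05, and 0 were higher; S100PBP, an S100P-binding protein and not a family member, was lower in the heavy pools at -1.09 (adjusted p = 0.0096, and over the threshold in 2 of 17 alternatives). For OE against control none of these 7 passed, S100A3 having the smallest p (1.53, adjusted p = 0.23). Without the Molm13 control light library S100A2 was at 1.99. The other family members were rare: S100P, the highest, averaged 2.92 CPM.

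No gene of these 5 lists passed for the interaction or the line labels. The smallest p values of the interaction belonged to GCA (1.68, adjusted p = 0.79), CACYBP (0.95), CEBPD (1.20), S100A3 (-1.35) and CD14, which had 0.380 CPM or less in every library. For the line labels they belonged to ANXA1, the partner of S100A11 (1.09, adjusted p = 0.30), TLR4 (-1.04, adjusted p = 0.31), RCN2 (-0.77), S100B (1.45) and HIF1A (0.33).

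Genes with profiles most like 3 of the members were picked by the smallest root mean square difference over the 8 libraries, among 8362 genes of at least 10 CPM. For S100A9 they were TYMP, thymidine phosphorylase (0.34), ELANE, neutrophil elastase (0.38), IL32 (0.40), the pseudogene HMGB1P5 (0.44) and CLEC3B (0.44). For S100A8 they were the non-coding ELFN1-AS1 (0.52), ELANE (0.56), HMGB1P5 (0.56), ATP5MC1 (0.58) and MIR7703 (0.59). S100A8 and S100A9 themselves differed by 0.43, less than S100A8 did from any of these. From S100A9, however, TYMP, ELANE and IL32 were closer than S100A8 was. For S100A10 the closest genes were SLC37A2 (0.17), NRBP1 (0.18), ITGA7 (0.18), YPEL5 (0.19) and NFE2 (0.19), with S100A6 itself at 0.17. The likeness describes 8 libraries that share groups and gradients, and ELANE was far more abundant than either calprotectin gene, at a mean of 1536 CPM.

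Counts of 2 members may share reads with overlapping genes, and which way any such reads went was not tested. The kit does not mark the strand, which bears on overlaps between opposite strands. An antisense gene (ENSG00000238279) that overlaps S100A6 exons by 23 bases held 22.3% to 27.2% as many reads as S100A6 in every library. Exons of S100A13 overlap those of another transcript on the same strand (ENSG00000271853) over 24.2% of their length and those of S100A1 on the opposite strand over 10.6%.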

How the data were processed

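The authors deposited raw counts of reads per gene for 78932 Ensembl genes in 8 libraries; per the submitters' processing notes cutadapt, STAR, featureCounts and the GRCh38 build were used, while versions, annotation release and strand setting were not given in these sources. Per the labels' protocols a Smart-seq kit was used. Gene positions and exon lengths came from GENCODE release 29, symbols from a table of gene IDs (42179 matched), promoters from RefSeq (GRCh38.p14; all 8 members matched), and these need not match the authors' annotation.

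Counts were fitted with edgeR 4.0.16 (R 4.3.3): TMM scaling, filterByExpr, quasi-likelihood F-test, and a model of group (genotype label by pool) plus line label with 3 residual degrees of freedom. P-values were adjusted by Benjamini-Hochberg over 24289 genes at a threshold of 0.05. DESeq2 1.42.0, limma 3.58.1 voom, other scalings, filters, blocks, summed pools and leaving out each library were alternatives. The code was tested on simulated data. CPM, standard errors and log2 differences (prior count 2 for matched pairs) were computed here.

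The line label pairs libraries by design, since same-numbered libraries share it; their deviations from group means correlated at 0.0169 to 0.338. Nothing in the labels describes separate cultures, so p-values reflect only how these libraries vary, and pools of a gradient are counted as independent. The members and lists were chosen with earlier results of these data known. All members were named; of each other list, up to 4 genes past the threshold by smallest p, or the gene of smallest p where none passed, and for S100A8, S100A9 and S100A10 the 5 genes of most like profile.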

Additional observations from a re-analysis of the deposited data

How the results depend on the processing

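The 4 members called in heavy against light pools passed in every alternative run. Runs that left out a library kept a single one in its group, so their calls lean on the spread of the other groups. DESeq2, limma voom and no filter called 6 members, and the gradient as replicate block called 5. Over all genes these runs called 7959 (DESeq2), 7253 (limma voom) and 7109 (gradient block) of 24289, and 7146 of 44611 with no filter. The gradient block was also run without the Molm13 control gradient (chosen after seeing the data). That run has no replicate among the controls, so its counts are not given, though it is among the 17 alternatives named above. Without the replicate block 4 members passed. For the interaction no member passed in the alternatives that kept all libraries. With libraries left out the interaction ranged from -0.66 to 2.95 for S100A4, -0.11 to 1.99 for S100A8, -0.15 to 1.83 for S100A10 and -0.13 to 2.35 for S100A11. Its sign reversed without the Molm13 control light library for S100A4 (-0.66), S100A10 (-0.15) and S100A11 (-0.13), and without the Molm13 control heavy library for S100A8 (-0.11); the cause was not tested beyond the sample left out. For the line labels 3 members passed with no filter, where 412 of 44611 genes did, and 2 with DESeq2, where 303 of 24289 did. The main fit called 0 members. With single libraries left out the line value was 1.35 to 2.12 for S100A8 and 1.27 to 1.86 for S100A9. The OE value of S100A8 was -1.68 with the pools of each gradient summed, where no gene of 24289 passed in edgeR (4186 at an unadjusted p under 0.05). The replicate block changed the number of genes called for OE against control, from 1061 with it to 116 without it. Upper-quartile scaling moved the median of all genes to -0.22 for heavy against light, against -0.04 with TMM, and split its calls into 2846 higher and 4319 lower; the same 4 members passed. The level order was the same per kb of the longest transcript. S100A12, with 8 reads in all, was too low to test.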
